A study of Mus musculus with 6 samples.

Results

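Thrombospondin 1 and the TGF-beta activation genes were followed as a set of 10 genes in mouse macrophages, taken by gene name from a deposited table of 57180 genes. The set comprised Thbs1 and its receptor Cd47, the ligands Tgfb1, Tgfb2 and Tgfb3, the receptors Tgfbr1 and Tgfbr2, the latency protein gene Nrros, and the feedback genes Pmepa1 and Smad7. Each name matched 1 row. The genes were chosen by pathway with their fold changes and adjusted p-values in this same comparison already known, so the counts below describe the set and give no independent support.

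The cells were wild-type macrophages grown from the bone marrow of mice aged 6 to 8 weeks, over 7 days in 20 ng/mL of M-CSF. They then received IL-4 (20 ng/mL) alone, in 3 libraries, or IL-4 together with CGRP, in 3 libraries, and were collected 24 h later. For the combined treatment the labels do not make clear whether the stated dose applies to CGRP as well as IL-4, so no CGRP dose is given. IL-4 is a cytokine that drives alternative activation of macrophages, and CGRP is a neuropeptide released by sensory nerves. Both groups received IL-4 and M-CSF, and no culture without IL-4 was sequenced. Strain is not stated, and the labels do not say whether replicates came from separate cultures or animals. The p-values therefore measure only how these samples spread, and that spread may be technical.

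TGF-beta is secreted bound to its own propeptide, which keeps it latent. In macrophages NRROS, also called LRRC33, tethers the latent form to the cell, and integrins, proteases or thrombospondin 1 can release the active ligand. The ligand joins the type II receptor TGFBR2, which recruits and phosphorylates the type I receptor TGFBR1, and SMAD2 and SMAD3 carry the signal to the nucleus. Pmepa1 and Smad7 are induced by the pathway in many cells and restrain it. Thrombospondin 1 also binds CD47 and CD36 on cell surfaces.

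Total counts ranged from 20088895 to 24060444 per library. Of 12 macrophage markers all 12 averaged above 10 CPM (the usual read count scaled by library size), and their summed level was 15380 to 15710 CPM in IL-4 and 15520 to 16130 CPM in IL-4+CGRP. IL-4+CGRP replicate 2 stood apart: its Pearson correlation across genes, on log2 CPM, was 0.9882 with IL-4 replicate 1, against 0.9876 and 0.9869 with the other IL-4+CGRP libraries. Calls within the set that changed on leaving this library out are given both ways.

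RefSeq promoter windows (GRCm38.p6, 250 bases before to 50 after a gene's start) were used for 6 of the 10 genes. These were Cd47, Tgfb1, Tgfb2, Tgfbr1, Tgfbr2 and Nrros, and the windows of Cd47 overlap each other. No window was used for Thbs1, Pmepa1, Tgfb3 or Smad7, so their promoters were not searched. The windows of Nrros and Tgfbr2 are printed because, among genes with a window, their 3 IL-4+CGRP libraries all lay above the 3 IL-4 libraries. This choice was made after their values were seen. The Nrros window is chr16:32165545-32165844 and the Tgfbr2 window chr9:116175314-116175613, both on the minus strand and read 5′ to 3′ along the gene. Capitals mark the short SMAD binding element CAGAC on either strand.
Nrros: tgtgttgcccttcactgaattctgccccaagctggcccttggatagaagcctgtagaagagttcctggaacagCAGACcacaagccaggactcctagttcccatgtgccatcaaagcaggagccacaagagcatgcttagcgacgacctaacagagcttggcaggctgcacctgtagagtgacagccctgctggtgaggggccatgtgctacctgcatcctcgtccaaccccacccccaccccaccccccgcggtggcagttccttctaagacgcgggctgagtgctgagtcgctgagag
Tgfbr2: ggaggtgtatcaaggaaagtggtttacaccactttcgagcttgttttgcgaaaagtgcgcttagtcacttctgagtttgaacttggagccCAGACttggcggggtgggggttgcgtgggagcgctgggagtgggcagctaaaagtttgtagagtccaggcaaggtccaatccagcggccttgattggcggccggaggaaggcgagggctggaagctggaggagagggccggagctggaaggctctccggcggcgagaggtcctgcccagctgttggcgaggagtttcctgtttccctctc
Each window holds the short SMAD binding element at 1 place, as do 49.6% of all 32851 promoter windows of this length at 1 place or more. Over the 8 windows of the 6 genes, 4 held it, among them the Tgfb2 window and a Tgfbr1 window. The cAMP response element TGACGTCA was found in 0 of the 8 windows of the 6 genes, against 1.79% of all windows. Both strands were searched, and these matches describe letters only.

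Of the 10 genes, 9 had enough counts to be tested and 3 rose: Thbs1, Pmepa1 and Nrros. Each of these 3 had all IL-4+CGRP libraries above all IL-4 libraries. The other 6 tested genes did not pass the threshold of 0.05 on the edgeR adjusted p, and 0 fell by edgeR, DESeq2 or limma-voom. At an unadjusted p under 0.05, 4 were higher and 1 lower, where 15.8% of all tested genes passed in either direction. Across all 13260 genes tested 2.32% were called higher and 1.54% lower. The set was chosen with this comparison in view, so nothing is read from these shares. Groups did not overlap for 6 of the 9, against 21.0% of all tested genes, with 11.1% of genes above in IL-4+CGRP.

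**Figure D1:**
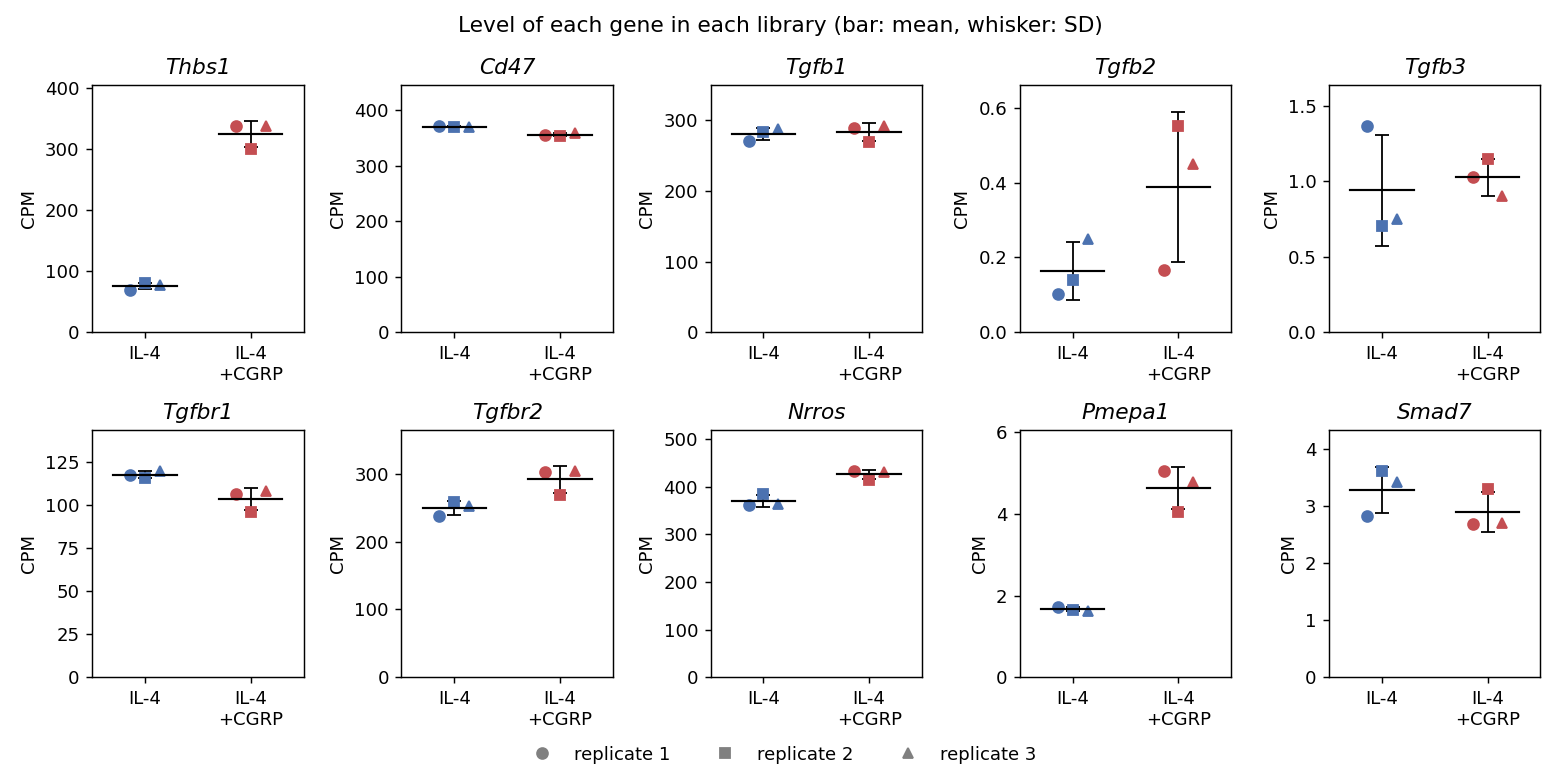
CPM of each of the 10 genes (vertical axes, each from 0) in the 3 IL-4 libraries (blue) and the 3 IL-4+CGRP libraries (red), with the mean as a bar, the SD as a whisker and the replicate number by symbol. Thbs1 and Pmepa1 show groups far apart, Nrros groups that are close but separate, and Tgfb1, Tgfb2, Tgfb3 and Smad7 groups that overlap.

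Thbs1 (ENSMUSG00000040152) encodes thrombospondin 1, the secreted matrix glycoprotein that can release TGF-beta from its latent complex. It measured 70.0, 80.8 and 76.8 CPM in IL-4 replicates 1 to 3, and 338, 300.5 and 338 CPM in IL-4+CGRP replicates 1 to 3. The lowest IL-4+CGRP library, replicate 2, was still far above the highest IL-4 library. The change was 4.29-fold, with a 95% interval of 3.86 to 4.77, and the log2 fold change was 2.10 ± 0.07 (SE, edgeR adjusted p = 2.8e-08). Thbs1 had the smallest p of all 13260 genes and ranked 10 by log2 fold change among the 11035 genes whose log2 CPM averaged 1 or more. It passed in all 15 other fits tried, at log2 fold changes from 2.05 to 2.16. The 4.29-fold change rests on deep counts, 1383 to 1842 per IL-4 library and 6544 to 8195 per IL-4+CGRP library.

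Thbs1 was nearly the whole thrombospondin family in these cells. Per kilobase of gene length it made up 96.4% to 97.5% of the family's counts in IL-4 libraries and 98.9% to 99.3% in IL-4+CGRP libraries. Thbs2 had 17 to 24 counts in every library and a log2 fold change of -0.03 ± 0.31 (SE, edgeR adjusted p = 0.97). Thbs3 had at most 15 counts in a library, Thbs4 had 1 count in all 6 libraries together, and neither was tested. Comp, the cartilage member of the family, had 7 to 17 counts and did not pass (edgeR adjusted p = 0.48).

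Platelets and endothelium are known sources of thrombospondin 1, so their markers were set beside it. The 8 platelet and megakaryocyte markers summed to 53.3 to 56.5 CPM in IL-4 and 71.0 to 95.1 CPM in IL-4+CGRP, and 0 of the 8 passed by edgeR (1 higher and 1 lower at an unadjusted p under 0.05, and 1 higher by DESeq2 and by limma-voom). The rise of this sum lay in Pf4, platelet factor 4, at 24.6 ± 2.61 and 48.95 ± 12.1 CPM in the 2 groups (SD, n = 3, edgeR adjusted p = 0.059). Itga2b and Ppbp, the next highest of the 8, had log2 fold changes of 0.02 and 0.01 (edgeR adjusted p = 0.92 and 0.97). Gp1bb was the lower one, averaging 0.877 CPM in IL-4 and 0.437 CPM in IL-4+CGRP (edgeR adjusted p = 0.26). Gp9, a subunit of the platelet receptor for von Willebrand factor, averaged 0.399 and 0.597 CPM. The 6 endothelial markers summed to 139 to 157 CPM in IL-4 and 179 to 200.1 CPM in IL-4+CGRP. Of the 4 tested, Pecam1 (1.45-fold, edgeR adjusted p = 0.0011) and Kdr (1.23-fold, edgeR adjusted p = 0.046) rose, although DESeq2 and limma-voom each called only 1 endothelial marker higher. Vwf averaged 35.5 CPM in IL-4 and 38.0 CPM in IL-4+CGRP (edgeR adjusted p = 0.66). Cdh5 averaged 1.09 and 1.57 CPM (edgeR adjusted p = 0.41), and neither passed. Over all tested genes 2.32% were called higher, and 15.8% passed the unadjusted threshold in either direction. Tek had at most 3 counts and Emcn at most 10 in any library. The 8 fibroblast markers summed to 47.4 to 50.9 CPM and 53.0 to 59.0 CPM, and 0 passed by edgeR, DESeq2 or limma-voom (2 higher at an unadjusted p under 0.05). None of these markers was at 0 in all libraries, and their part in the Thbs1 result was not tested. In bulk RNA, more cells of a type and more RNA per cell cannot be told apart.

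Cd47 (ENSMUSG00000055447) encodes the thrombospondin receptor that also gives the "do not eat me" signal to SIRP alpha. It measured 371, 369 and 369.7 CPM in IL-4 and 356, 353.5 and 358 CPM in IL-4+CGRP. The libraries of each group were very close to each other and all IL-4+CGRP libraries lay below all IL-4 libraries, as was the case for 9.92% of all tested genes. The difference was small, a log2 fold change of -0.06 ± 0.04 (SE, edgeR adjusted p = 0.57), with a 95% interval of 0.903- to 1.025-fold. In the list of 8 genes of the CD47 and SIRP alpha axis 0 passed by edgeR, DESeq2 or limma-voom, and 1 was higher at an unadjusted p under 0.05. That unadjusted threshold was passed by 15.8% of all tested genes in either direction. Sirpa averaged 2615 ± 115 CPM in IL-4 and 2542 ± 154 CPM in IL-4+CGRP (SD, n = 3, edgeR adjusted p = 0.74).

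Other receptors and partners of thrombospondin 1 moved in both directions. Of 17 tested in a list of 18, 2 rose and 3 fell, against 3.85% of all tested genes called either way, with a median log2 fold change of 0.01 in the list and of -0.00 over all tested genes. Cd36, a scavenger receptor that binds the type 1 repeats of thrombospondin 1, measured 687, 653 and 682 CPM in IL-4 and 578, 520.5 and 555 CPM in IL-4+CGRP. All IL-4+CGRP libraries were below all IL-4 libraries, and Cd36 fell by 0.29 ± 0.05 on the log2 scale (SE, edgeR adjusted p = 0.0055). Calr, calreticulin, which with LRP1 forms a cell surface receptor for the amino-terminal part of thrombospondin 1, was at 854 ± 11.1 CPM in IL-4 and fell to 678 ± 6.10 CPM in IL-4+CGRP (SD, n = 3), with an edgeR adjusted p of 5.1e-04. Lrp1 itself had a log2 fold change of -0.24 ± 0.07 (SE, edgeR adjusted p = 0.15).

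Itgam, the integrin alpha M chain, was at 417 ± 9.71 CPM in IL-4 and rose to 554 ± 39.0 CPM in IL-4+CGRP (SD, n = 3), with an edgeR adjusted p of 0.0012. Sdc4, the heparan sulphate proteoglycan syndecan 4, had a log2 fold change of 0.24 ± 0.06 and rose (SE, edgeR adjusted p = 0.035), and Itgb2, the beta chain that pairs with Itgam, fell 1.12-fold (edgeR adjusted p = 0.049). The Itgb2 and Sdc4 calls ended without any single library other than IL-4+CGRP replicate 2, with limma-voom and with a non-robust dispersion fit. The Itgb2 call also ended with DESeq2, upper quartile factors, library totals alone and a mean count of at least 50.

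Tgfb1 (ENSMUSG00000002603) was the main TGF-beta ligand. Per kilobase it made up 99.6% to 99.8% of the counts of the 3 ligand genes in every library. It measured 271, 284 and 287 CPM in IL-4 and 289, 269 and 291.5 CPM in IL-4+CGRP. The groups overlapped, with the lowest and the highest library of the 6 both in IL-4+CGRP. The log2 fold change was 0.01 ± 0.05 (SE, edgeR adjusted p = 0.93), and its 95% interval ran from 0.934- to 1.09-fold. The sign of this value turned negative when IL-4 replicate 1 or IL-4+CGRP replicate 1 or 3 was left out.

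Tgfb3 (ENSMUSG00000021253) had 27, 15 and 18 counts in IL-4 libraries and 25, 25 and 20 counts in IL-4+CGRP libraries, with a log2 fold change of 0.14 ± 0.33 (SE, edgeR adjusted p = 0.87). At this depth the 95% interval spans 0.669- to 1.81-fold, so a moderate change in either direction was not detectable, and the sign turned without IL-4 replicate 2 or 3. Ttll5 lies on the strand opposite Tgfb3 and had 166 to 233 counts. The sources used here do not say whether strand was used in counting, so reads of these overlapping genes cannot be told apart. Tgfb2 (ENSMUSG00000039239) had 2, 3 and 6 counts in IL-4 and 4, 12 and 10 in IL-4+CGRP, too few to be tested, and these groups overlapped.

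Nrros (ENSMUSG00000052384), the tether of latent TGF-beta on myeloid cells, was the third gene that rose. It measured 362, 384.5 and 365 CPM in IL-4 and 432, 414 and 431 CPM in IL-4+CGRP. All IL-4+CGRP libraries were above all IL-4 libraries, and the gap between the nearest libraries was smaller than for Thbs1. The change was 1.15-fold, with a 95% interval of 1.07 to 1.23, and a log2 fold change of 0.20 ± 0.05 (SE, edgeR adjusted p = 0.032). This call ended when any library other than IL-4+CGRP replicate 2 was left out (adjusted p = 0.078 to 0.21 in edgeR) and with a non-robust dispersion fit (adjusted p = 0.052), at log2 fold changes that stayed between 0.18 and 0.23. Without IL-4+CGRP replicate 2 the edgeR adjusted p was 0.0015. Lrrc32, which encodes GARP, the related tether best known on regulatory T cells and platelets, had 57 to 114 counts and did not pass (log2 fold change -0.33 ± 0.22, SE, edgeR adjusted p = 0.52).

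The wider list of latency, storage and activation genes had 18 of 21 members tested, of which 3 rose (Thbs1, Nrros and Mmp14) and 0 fell by edgeR, DESeq2 or limma-voom, with 5 higher and 0 lower at an unadjusted p under 0.05. Over all tested genes 2.32% rose and 15.8% passed that unadjusted threshold in either direction. The median log2 fold change of the list was 0.04. Mmp14, a membrane metalloproteinase that can release latent TGF-beta, measured 72.9, 78.2 and 77.4 CPM in IL-4 and 97.4, 97.2 and 101.5 CPM in IL-4+CGRP. These groups did not overlap, and Mmp14 rose by 0.37 ± 0.05 on the log2 scale (SE, edgeR adjusted p = 0.0020). The integrins that activate TGF-beta through its propeptide were uneven in level: Itgav averaged 162 ± 12.1 CPM in IL-4 and 162 ± 14.4 CPM in IL-4+CGRP (SD, n = 3, edgeR adjusted p = 0.97), Itgb8 had 5 to 9 counts in a library and Itgb6 had 0 in all 6. Itgb3 had a log2 fold change of 0.21 ± 0.07 (SE, edgeR adjusted p = 0.12). Other integrin beta chains were abundant: Itgb5 averaged 342 CPM in IL-4 and 321 CPM in IL-4+CGRP (edgeR adjusted p = 0.39). Itgb1 averaged 496.5 and 493 CPM (edgeR adjusted p = 0.93), and neither passed. Furin, the convertase that cuts the TGF-beta precursor, had a log2 fold change of 0.06 ± 0.06 (SE, edgeR adjusted p = 0.67). Ltbp1, Ltbp2 and Ltbp3, which anchor latent TGF-beta in the matrix, had log2 fold changes of 0.01, -0.09 and -0.05 with edgeR adjusted p from 0.77 to 0.98, and Ltbp4 had at most 4 counts in a library.

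**Figure D2:**
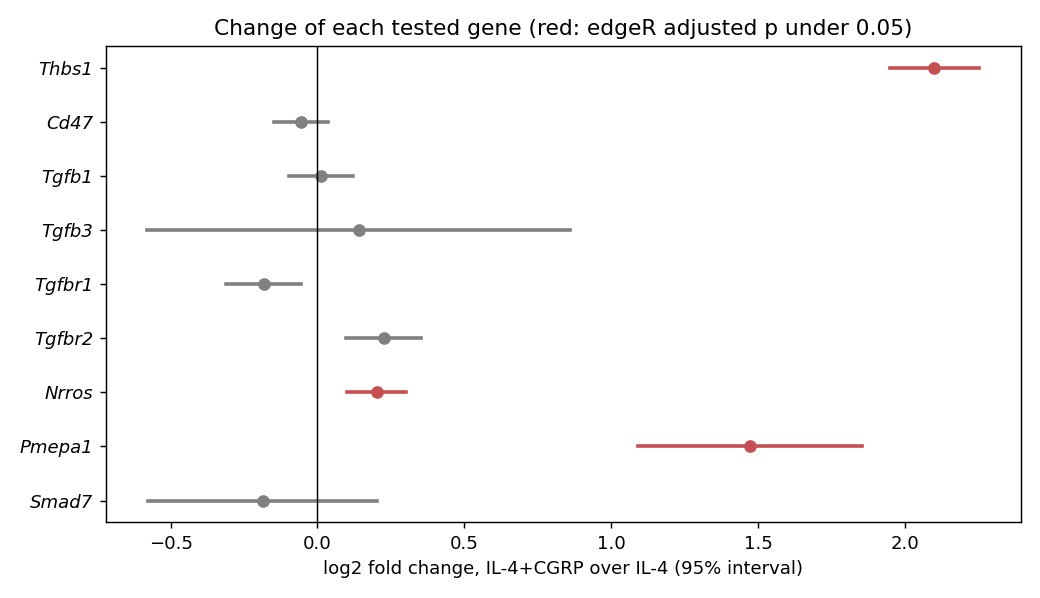
Log2 fold change of IL-4+CGRP over IL-4 for the 9 tested genes (points) with 95% intervals (lines), red where the edgeR adjusted p was under 0.05. The interval of Thbs1 runs from 1.95 to 2.25 and that of Pmepa1 from 1.09 to 1.85, the interval of Nrros lies just above 0, and those of Tgfb3 and Smad7 are wide.

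The receptor genes shifted in opposite directions, neither past the threshold. Tgfbr1 (ENSMUSG00000007613), the type I receptor kinase, measured 118, 115.5 and 120 CPM in IL-4 and 106, 96.2 and 108 CPM in IL-4+CGRP. All IL-4+CGRP libraries were below all IL-4 libraries, and the log2 fold change was -0.18 ± 0.06 (SE, edgeR adjusted p = 0.13). Tgfbr2 (ENSMUSG00000032440), the ligand-binding type II receptor, measured 238, 258 and 252 CPM in IL-4 and 302, 269 and 303.5 CPM in IL-4+CGRP. Here all IL-4+CGRP libraries were above all IL-4 libraries, replicate 2 least so, and the log2 fold change was 0.23 ± 0.06 (SE, edgeR adjusted p = 0.056).

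The Tgfbr2 call depended on the setting. It did not pass with DESeq2 (adjusted p = 0.059), limma-voom (adjusted p = 0.085) or a non-robust dispersion fit in edgeR (adjusted p = 0.095), nor on leaving out any library other than IL-4+CGRP replicate 2 (edgeR adjusted p = 0.16 to 0.27). It passed with upper quartile factors (edgeR adjusted p = 0.047), library totals alone (adjusted p = 0.045) and no count filter (adjusted p = 0.0027). Without IL-4+CGRP replicate 2 it was called, with a log2 fold change of 0.28 ± 0.04 (SE, edgeR adjusted p = 3.8e-04), in a fit that called 13.8% of all tested genes, 6.78% higher and 7.04% lower. The ratio of Tgfbr2 to Tgfbr1 per kilobase, which does not depend on how libraries are scaled, ran from 1.44 to 1.59 in IL-4 and from 1.99 to 2.02 in IL-4+CGRP. Its means were 1.51 ± 0.07 and 2.00 ± 0.01 (SD, n = 3). The groups could not overlap, because all IL-4+CGRP libraries lay above for Tgfbr2 and below for Tgfbr1. This ratio was chosen after the values were seen and was not tested.

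Among 7 tested receptors and co-receptors of TGF-beta 0 passed by edgeR, DESeq2 or limma-voom, with 1 higher and 2 lower at an unadjusted p under 0.05 and a median log2 fold change of -0.08. Cd109, a membrane protein that restrains TGF-beta receptors, was the other lower one, at 9.95 ± 0.695 and 7.66 ± 0.429 CPM (SD, n = 3, edgeR adjusted p = 0.084). Eng, endoglin, had a log2 fold change of 0.05 ± 0.07 (SE, edgeR adjusted p = 0.77), and Tgfbr3, betaglycan, had only 10 to 18 counts. Of 10 tested SMAD mediators and cofactors 0 passed by edgeR, DESeq2 or limma-voom, with 1 higher at an unadjusted p under 0.05. For both lists, the share of all tested genes at that unadjusted threshold was 15.8% in either direction. Smad2 measured 53.4 ± 2.23 and 53.8 ± 3.13 CPM, and Smad3 18.6 ± 1.80 and 19.3 ± 0.788 CPM (SD, n = 3, edgeR adjusted p = 0.95 and 0.82).

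Pmepa1 (ENSMUSG00000038400) encodes a membrane protein that binds SMAD2 and SMAD3 and is induced by TGF-beta as a brake. It measured 1.72, 1.64 and 1.63 CPM in IL-4 and 5.03, 4.04 and 4.78 CPM in IL-4+CGRP. The lowest IL-4+CGRP library, replicate 2, was well above the highest IL-4 library. The change was 2.78-fold, with a 95% interval of 2.13 to 3.61, and the log2 fold change was 1.47 ± 0.17 (SE, edgeR adjusted p = 5.6e-04). The level was low, 34 to 39 counts per IL-4 library and 88 to 122 per IL-4+CGRP library, and Pmepa1 passed in all 15 other fits (adjusted p at most 0.0091).

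Smad7 (ENSMUSG00000025880), the inhibitory SMAD and the other feedback gene of the set, did not follow it. It measured 2.83, 3.61 and 3.42 CPM in IL-4 and 2.68, 3.31 and 2.70 CPM in IL-4+CGRP. The groups overlapped, with a log2 fold change of -0.19 ± 0.18 (SE, edgeR adjusted p = 0.67) and a 95% interval of 0.670- to 1.15-fold. At counts of 56 to 82 per library this interval lies wholly below that of Pmepa1, although the difference between the genes was not tested.

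Of the 13 genes in the list of feedback and repression, all tested, Pmepa1 rose and 0 fell, with 3 higher and 1 lower at an unadjusted p under 0.05. DESeq2 called 2 higher and 0 lower, and limma-voom 1 and 0. The median log2 fold change was -0.01. Over all tested genes 2.32% rose, 1.54% fell and 15.8% passed the unadjusted threshold in either direction. Pmepa1 is also a gene of the set, chosen with its result known. Skil, a SMAD corepressor that TGF-beta signalling induces in many cells, averaged 81.8 ± 2.67 CPM in IL-4 and 81.8 ± 6.41 CPM in IL-4+CGRP (SD, n = 3, edgeR adjusted p = 0.99). Its relative Ski lay near the threshold, with a log2 fold change of 0.22 ± 0.06 (SE, edgeR adjusted p = 0.051).

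**Figure D3:**
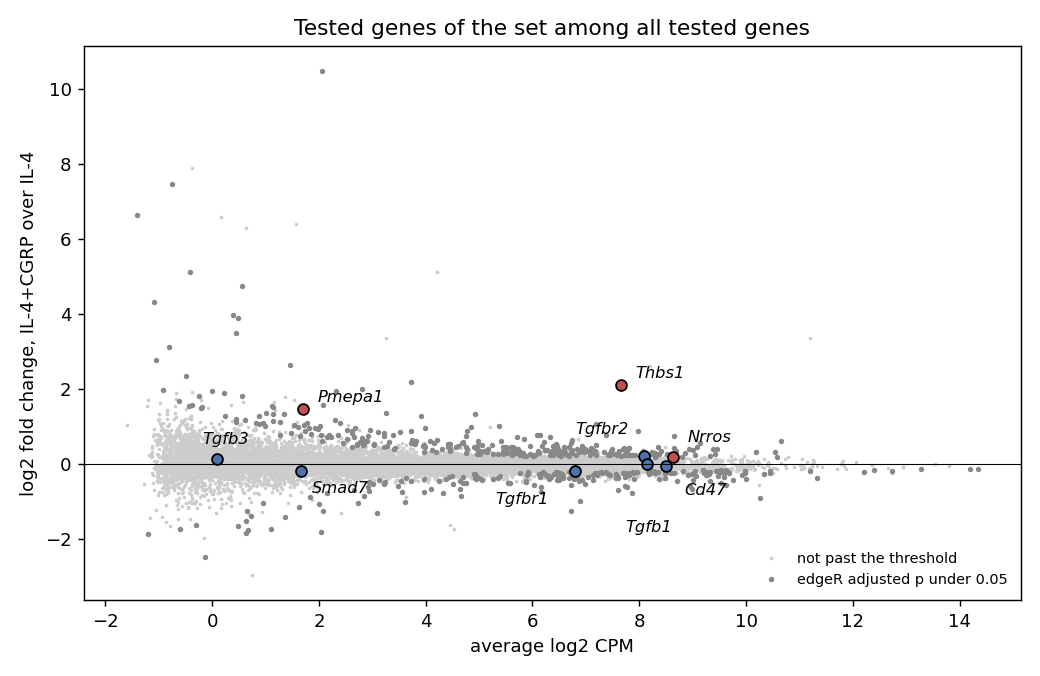
Log2 fold change of IL-4+CGRP over IL-4 against average log2 CPM for all 13260 tested genes (light grey, not past the threshold, and dark grey, edgeR adjusted p under 0.05), with the 9 tested genes of the set in red where called and blue where not. Thbs1 stands clear of genes at its level, at an average log2 CPM of 7.65, Pmepa1 sits high among genes of low count at 1.70, and Nrros lies at 8.64 near the edge of the uncalled genes.

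Genes known to be induced by TGF-beta in various cells were mixed. Of 26 tested in a list of 28, 5 rose (Thbs1, Pmepa1, Vegfa and Ctla2a among them), 2 fell (Olfml3 and Rgs1) and 19 did not pass, with a median log2 fold change of 0.06 (-0.00 over all tested genes, of which 2.32% rose and 1.54% fell). DESeq2 called 5 higher and 2 lower, limma-voom 4 and 2, and 8 were higher and 6 lower at an unadjusted p under 0.05. Of all tested genes 15.8% passed that unadjusted threshold in either direction. The list was drawn up with results of these data known, so its counts are a description. Thbs1 and Pmepa1 are in this list and in the set, so they count in both. Olfml3, a TGF-beta dependent gene of microglia, measured 28.7, 30.4 and 31.8 CPM in IL-4 and 22.1, 21.7 and 20.0 CPM in IL-4+CGRP. It fell 1.43-fold (edgeR adjusted p = 0.0027) with groups that did not overlap.

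Rgs1, a regulator of G protein signalling, fell 1.41-fold (edgeR adjusted p = 0.0027). Vegfa, the vascular growth factor, was at 19.0 ± 1.29 CPM in IL-4 and rose to 35.4 ± 2.93 CPM in IL-4+CGRP (SD, n = 3), with an edgeR adjusted p of 1.2e-04. Ctla2a, a cysteine protease inhibitor, rose 1.58-fold (edgeR adjusted p = 0.041), a call that ended with limma-voom, with a non-robust dispersion fit and without any single library other than IL-4+CGRP replicate 2. Tgfbi, a matrix protein named for its induction by TGF-beta, averaged 208 ± 13.6 CPM in IL-4 and 183 ± 6.10 CPM in IL-4+CGRP. It did not pass (SD, n = 3, edgeR adjusted p = 0.14), and all IL-4+CGRP libraries were below. Ccn2 went the other way, at 4.22 ± 0.221 CPM in IL-4 and 5.82 ± 0.969 CPM in IL-4+CGRP. It did not pass either (SD, n = 3, edgeR adjusted p = 0.14), and all IL-4+CGRP libraries were above.

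**Figure D4:**
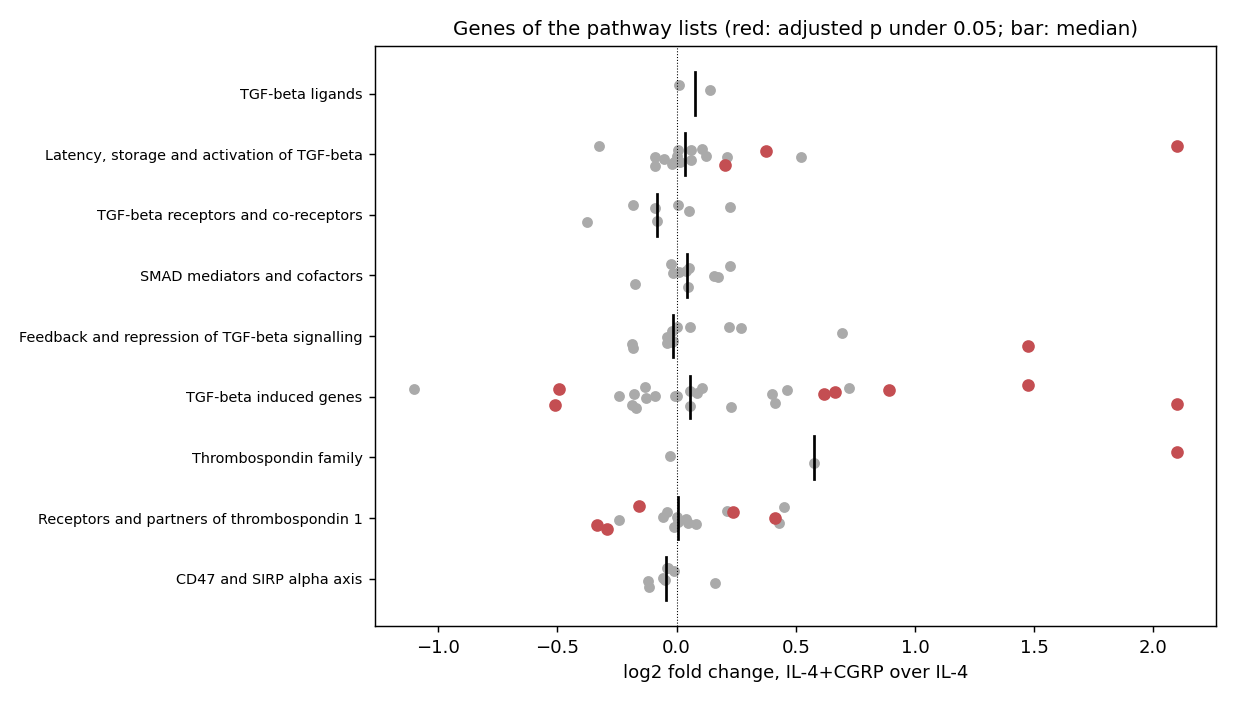
Log2 fold change of IL-4+CGRP over IL-4 for every tested gene of 9 lists, 1 list to a row, with genes past an edgeR adjusted p of 0.05 in red, the others in grey and the list median as a bar. A gene in several lists appears in each. Most points lie near 0, and the points furthest right are Thbs1 at 2.10 and Pmepa1 at 1.47.

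Over all 9 lists, with each gene counted once and the 10 genes of the set left out, 82 of 91 genes were tested, 6 rose and 5 fell. Their median log2 fold change was 0.00, and 13.4% were called, against 3.85% of all tested genes. These lists were drawn up with results of these data known, so that share is a description. With the set included 9 list genes rose, a count that became 18 on leaving out IL-4+CGRP replicate 2 and 5 on leaving out IL-4+CGRP replicate 1 or either of IL-4 replicates 1 and 3. The deposited table also carries KEGG terms, and 8 of the 10 genes had the TGF-beta signaling pathway term (Cd47 and Pmepa1 did not). Of 110 genes with that term 72 were tested, 5 rose (Thbs1, Nrros, Inhba, Bmp2 and Trf) and 2 fell (Id2 and Id3), with a median log2 fold change of 0.01. This annotation was looked up after the data were seen, and its genes are named for that reason.

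Compared per kilobase of the deposited gene length, the order of levels within the set changed at Thbs1 and at Pmepa1. In IL-4 the order was Cd47 (358 CPM per kilobase), Tgfb1 (129), Nrros (104), Tgfbr2 (30.8), Tgfbr1 (20.4), Thbs1 (13.0), Smad7 (0.769), Pmepa1 (0.366), Tgfb3 (0.278) and Tgfb2 (0.0471). In IL-4+CGRP Thbs1 (55.7 CPM per kilobase) came above Tgfbr2 (36.0) and Tgfbr1 (18.0), and Pmepa1 (1.02) above Smad7 (0.677). The libraries of these neighbours did not overlap in either group, except that Pmepa1 and Tgfb3 overlapped in IL-4. The place of Cd47 is uncertain, because its deposited length of 1032 bases is that of its shortest transcript in GENCODE M21. With its longest transcript of 5250 bases it would be at 70.5 CPM per kilobase in IL-4, below Tgfb1 and Nrros. The order of Tgfb1 and Nrros also depends on the length used. With their longest transcripts they would be at 109.1 and 103.5 CPM per kilobase in IL-4, and at 110.0 and 119.0 in IL-4+CGRP.

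The 5 genes whose log2 CPM over the 6 libraries was most like that of Thbs1, among genes averaging 1 log2 CPM or more, were Fcgr3, Pla2g7, Il1rap, Itgb7 and Rnf150, with Pearson correlations from 0.9976 to 0.9981. The 6 libraries fall into the 2 treatment groups, so the points share the step between groups and the likeness is given with no p. The steps differed in size: Pla2g7, a lipoprotein-associated phospholipase, rose 1.85-fold, Itgb7 (integrin beta 7) 1.73-fold, Fcgr3 (an Fc gamma receptor) 1.31-fold, Il1rap (the interleukin-1 receptor accessory protein) 1.26-fold and Rnf150 1.17-fold. Of these 5, Pla2g7 had the smallest adjusted p in edgeR (1.3e-06) and Il1rap the largest (0.045).

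**Figure D5:**
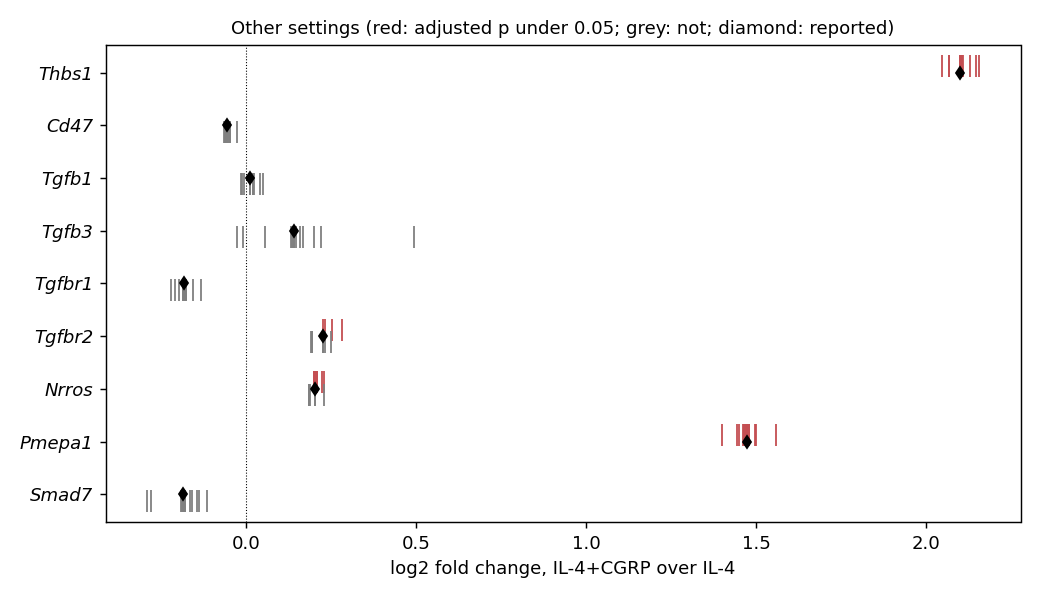
Log2 fold change of IL-4+CGRP over IL-4 for the 9 tested genes in the fit reported here (diamonds) and in the other fits (ticks, red where the adjusted p was under 0.05 and grey where not). Thbs1 and Pmepa1 stay red throughout, Nrros and Tgfbr2 have ticks of both colours, and the ticks of Tgfb1 and Tgfb3 lie on both sides of 0.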

How the data were processed

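RNA sequencing of 6 libraries was analysed. Per the labels' protocols, libraries came from 1 µg of total RNA with a stranded mRNA kit. The tools fastp, HISAT2 and StringTie and the build GRCm39 are named in the submitters' processing notes. Versions, annotation and the strand setting of counting: not given in the sources used here. The values deposited by the authors are estimated counts per gene, not normalized, since 23.3% to 26.6% of values above 0 were not whole (tolerance 1e-06), and were rounded. Gene lengths and KEGG terms are those of the deposited table. Genes passing filterByExpr by group (13260, with 99.91% of counts) were scaled by TMM (factors 0.985 to 1.016) and tested in R 4.3.3 with edgeR 4.0.16 (robust quasi-likelihood F test, two-sided). P-values were adjusted over all of them by Benjamini-Hochberg. CPM are counts over TMM-scaled totals. SE is the log2 fold change over the root of F, and 95% intervals use its t distribution.

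Members and lists were chosen with earlier results of these data known. Genes named are the 10 members, up to 4 called genes per list with the smallest p, list genes that define a role, and the 5 most like Thbs1. Beyond the rule, Itgb2, Olfml3 and Ctla2a are named to complete their lists' calls. The marker genes and Cd109, Ski, Tgfbi and Ccn2 are named for their values. All of these were chosen after the values were seen. Alternatives were DESeq2 1.42.0, limma-voom (limma 3.58.1), other scalings and filters, a dispersion fit that was not robust, a replicate block, and leaving out each library. On simulated data for this comparison (13260 genes, 50 changed per fold), 28% of genes changed 1.3-fold were recovered. The share was 74% at 1.5-fold, 90% at 2-fold and 98% at 4-fold. Simulated libraries were drawn independently from the dispersion trend, with none standing apart, so recovery in the measured libraries may differ. The values of 1 called gene of the induced list are not reported here.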

Additional observations from a re-analysis of the deposited data

How the results depend on the processing

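Thbs1 and Pmepa1 passed as higher under all 15 alternatives, and the count of members called higher stayed between 2 and 4, with 0 called lower. Over all genes, 307 higher and 204 lower became 584 and 434 with no count filter, and 140 to 915 higher and 80 to 950 lower when 1 library was left out. The highest counts, 915 and 950, came without IL-4+CGRP replicate 2. For the lists together, 9 higher and 5 lower became 15 and 10 with no count filter, and 5 to 18 higher and 4 to 7 lower with 1 library left out. Called genes were 60.1% higher, and 71.2% with library totals alone. That scaling moved the median log2 fold change of all genes to 0.02. The Tgfb1 value ran from -0.015 to 0.0477 when 1 library was left out (-0.013 on leaving out IL-4 replicate 1, -0.0082 and -0.015 for IL-4+CGRP replicates 1 and 3). That of Tgfb3 ran from -0.0275 to 0.492 (-0.0275 and -0.0098 without IL-4 replicates 2 and 3). Tgfb3 was not tested at a mean count of at least 50. The causes were not tested. With the replicate number as a block, 176 genes were higher and 86 lower, the lists had 5 higher, and Nrros (adjusted p = 0.15), Sdc4, Ctla2a and Itgb2 did not pass. The labels do not say that numbers pair the libraries. Deviations of same-numbered libraries from their group means correlated at -0.188, -0.182 and 0.13. With 3 libraries per group, these values cannot show whether cultures or animals were shared. Of the IL-4 libraries, replicate 3 alone correlated best with its own number. Depth limits Tgfb2 and Tgfb3 most.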
